A study of Mus musculus with 46 samples.

Results

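The transcripts examined here encode 9 enzymes that lengthen or desaturate fatty acids: the elongases Elovl1, Elovl2, Elovl3, Elovl5 and Elovl6 and the desaturases Fads1, Fads2, Scd1 and Scd2. They were picked by symbol, as members of these families, out of the 25494 rows of the gene table, when results of these data were already known, and all 9 passed the filter on low counts that left 13494 rows for testing. Male C57BL/6 mice had eaten a lipid-rich diet (LD) or a carbohydrate-rich diet (CD) from 6 weeks of age for 20 weeks. Lipid made up 60% of the energy of LD and 10% of that of CD, carbohydrate 20% and 70%, and protein 20% of each. All values come from whole liver. RNA was sequenced from 5 mice on each diet, H3K27ac was mapped by ChIP-seq in 3 livers, the factors Hnf4α and C/EBPα in 2 livers each, and contacts by promoter capture Hi-C (PCHi-C) in 2 pooled livers. The LD mice were obese, and the diets differ in lipid and carbohydrate at once, so that the parts of each cannot be told apart. Nothing in the labels says which assays shared an animal, and in whole liver fewer cells of a type and less RNA per cell cannot be told apart.

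Fatty acid synthase stops at palmitate, and longer or less saturated acids are made from it, or from dietary acids, on the endoplasmic reticulum. An Elovl protein catalyses the condensation of an acyl-CoA with malonyl-CoA that opens each round of elongation, and the desaturases then place double bonds with electrons delivered through cytochrome b5. Elovl1, Elovl3 and Elovl6 act mainly on saturated and monounsaturated chains, while Elovl2 and Elovl5 act on polyunsaturated chains. In liver, Scd1, Elovl6 and fatty acid synthase are known as a lipogenic programme that rises on carbohydrate feeding, and Fads1 and Fads2 turn the essential fatty acids into arachidonic acid and its relatives.

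The libraries held 31707963 to 39012699 counted read pairs, and the correlation of log2 CPM (read counts scaled to a common library size) between mice of a diet was 0.982 to 0.993. The 9 transcripts together took 1.32% to 2.20% of a library on LD and 2.25% to 3.71% on CD, most of it Scd1 with 0.934% to 1.70% on LD and 1.91% to 3.29% on CD. Hepatocyte markers summed to 81136 to 101369 CPM on LD and 88894 to 103176 on CD, the greater part of it Alb, and of these 5 genes Cps1, an enzyme of the urea cycle, was called lower on LD (-1.33 on the log2 scale). Macrophage markers summed to 392 to 1032 CPM on LD and 300.3 to 595 on CD with 1 of 5 called higher (Cd68), against 13.8% of all genes, and stellate cell markers to 458 to 650 and 366 to 481 with 2 of 5 called higher (the collagens Col1a1 and Col3a1). Lymphocyte markers summed to 27.1 to 66.0 CPM on LD and 21.4 to 28.8 on CD, with 1 of 4 called higher (Ptprc), and none of the endothelial or cholangiocyte markers was called. Of 4 adipocyte markers, Plin1 and Lep had no counted read in any liver, Adipoq had 2 on LD and 7 on CD, and Adrb3 had 269 and 392 and was called lower on LD (-0.61). What part the other cell types had in the changes below was not tested.

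On LD, Fads2 rose and Elovl2, Elovl3, Elovl6 and Scd1 fell, while Elovl1, Elovl5, Fads1 and Scd2 were not called. Calls required a fold change above 1.2 and, in edgeR's quasi-likelihood test, an adjusted p (Benjamini-Hochberg) under 0.05. By this rule 1 member was higher on LD against 13.8% of the 13494 genes tested, and 4 were lower against 11.1%. Every LD mouse was above every CD mouse in 1 member, against 10.2% of genes, and below in 4, against 8.35%. These were the 5 called genes. Calls and orders come from the same counts, so the orders are not separate support. The median log2 fold change of the members was 0.03 and that of all genes -0.0019. Those 5 calls were made under each of the 19 alternative settings for RNA.

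**Figure D1:**
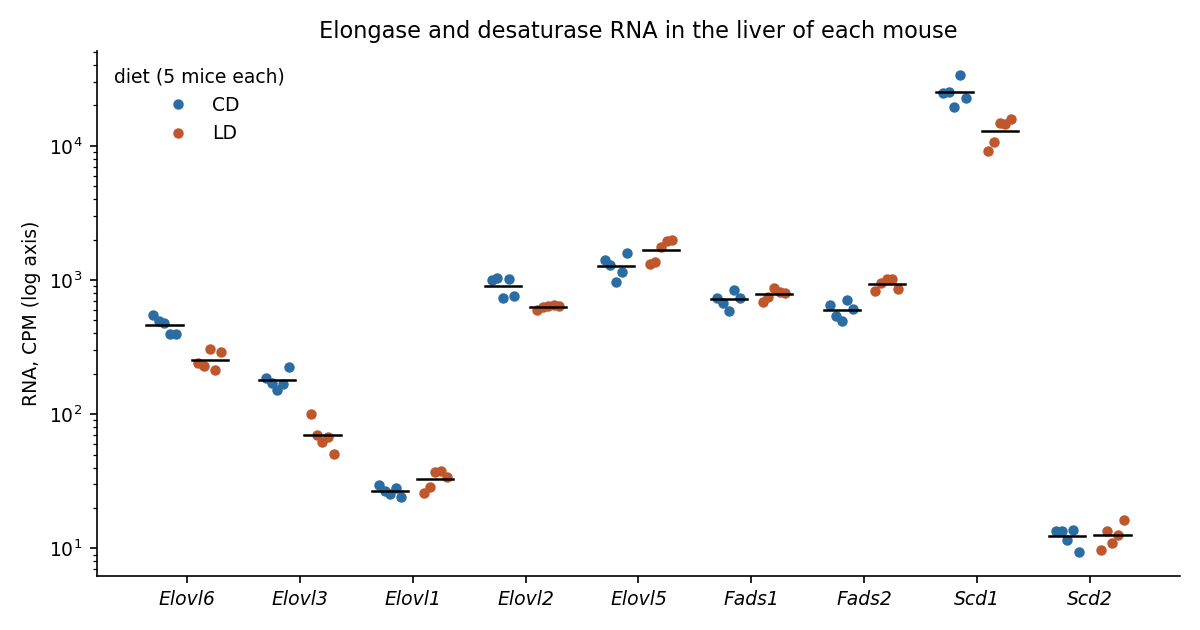
RNA level of each enzyme in each mouse, in CPM on a log axis, with CD mice in blue and LD mice in orange (5 mice each) and the mean as a black line. The diets do not overlap for Elovl6, Elovl3, Elovl2, Scd1 and Fads2, and they overlap for the other 4.

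Of the elongases of saturated and monounsaturated chains, Elovl6 and Elovl3 were called lower on LD and Elovl1 was not called. Elovl6, which takes palmitate to stearate, lies on chromosome 3 of mm9 from 129235304 to 129341411 on the plus strand. Its RNA measured 544, 496, 477, 398 and 395 CPM in the CD mice and 240.2, 228, 305, 214 and 289.6 CPM in the LD mice. Every LD mouse thus lay below every CD mouse, and the means were 462 ± 64.7 CPM for CD and 255 ± 39.9 CPM for LD (SD, n = 5 each). The log2 fold change of LD over CD was -0.85 (standard error 0.118, edgeR adjusted p = 0.000247), which is 1.81-fold more on CD.

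Elovl3, an elongase of saturated and monounsaturated very long chains that is best known from brown fat and skin and is also made in liver, had the greatest fold difference of the 9. This gene spans 46206389 to 46210184 on the plus strand of chromosome 19. The CD mice had 187, 171, 151, 167 and 226 CPM and the LD mice 101, 69.97, 62.1, 67.5 and 50.5 CPM. Even the highest LD mouse was well under the lowest CD mouse. LD over CD gave a log2 fold change of -1.36 (standard error 0.169, edgeR adjusted p = 0.000234), which is 2.57-fold more on CD. Ucp1, the marker of brown fat, had no counted read in any liver.

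Elovl1, which extends saturated chains to very long acids for sphingolipids, lies on chromosome 4 from 118100698 to 118105557 on the plus strand. Its level was 29.8, 26.99, 25.4, 28.4 and 24.3 CPM on CD and 25.8, 28.5, 37.2, 37.5 and 34.2 CPM on LD. LD mice 3, 4 and 5 were above all CD mice, and LD mice 1 and 2 were within their range. The log2 fold change of 0.27 (95% interval 0.05 to 0.50) did not pass (edgeR adjusted p = 0.0664). It passed in limma on log2(TPM + 1) and log2(TPM + 0.1) with adjusted p of 0.034 and 0.0324. In these 2 settings the median log2 fold change of all genes was 0.0563 and 0.0712, against -0.0019 in edgeR. Elovl1 also passed in edgeR without LD mouse 1 or LD mouse 2 with adjusted p of 0.0149 and 0.04. It did not pass in DESeq2 (adjusted p = 0.0633) or in edgeR's glmTreat against a fold of 1.2 (adjusted p = 0.653).

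Of the elongases of polyunsaturated chains, Elovl2 was called lower on LD and Elovl5 was not called, and the difference between them was not tested. Elovl2 prepares the chains from which docosahexaenoic acid is made and lies on chromosome 13 from 41277751 to 41315772 on the minus strand. In the CD mice it measured 998, 1038, 734, 1011 and 763 CPM, and in the LD mice 596, 629.7, 643, 648 and 639.8 CPM. The LD mice formed a narrow band, with a coefficient of variation of 3.27% against 16.2% on CD. On the log2 scale LD differed from CD by -0.53 (standard error 0.102, edgeR adjusted p = 0.00214), which is 1.44-fold more on CD.

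Elovl5, which elongates the products of Fads2, spans 77765172 to 77832326 on the plus strand of chromosome 9. Its RNA was at 1401, 1295, 963, 1143 and 1583 CPM on CD and 1309, 1362, 1769, 1953 and 1971 CPM on LD. The diets overlapped, with LD mice 3, 4 and 5 above all CD mice and LD mice 1 and 2 among them. The log2 fold change of 0.39 (95% interval 0.07 to 0.71) did not pass (edgeR adjusted p = 0.0685). It passed in DESeq2 (adjusted p = 0.0355), in limma on log2(TPM + 1) and log2(TPM + 0.1) (adjusted p = 0.0469 and 0.0498), and in edgeR without LD mouse 1, LD mouse 2 or CD mouse 5 (adjusted p = 0.0313, 0.0415 and 0.0357). In the limma settings the median of all genes was 0.0563 and 0.0712. Against a fold of 1.2 in edgeR's glmTreat, Elovl5 was not called (adjusted p = 0.349).

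Fads1 and Fads2 sit on chromosome 19 and are known to work in sequence. Fads2 places the first new double bond in linoleic and alpha-linolenic acid, and its gene runs from 10138654 to 10175993 on the minus strand. It was the called gene with more RNA on LD, with 825, 944, 1021, 1022 and 853 CPM against 647, 542, 491, 714 and 606 CPM on CD. No LD mouse was as low as the highest CD mouse. Fads2 gained 0.64 on the log2 scale (standard error 0.105, edgeR adjusted p = 0.000734), which is a 1.56-fold rise.

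Fads1, which acts after Fads2 and elongation to form arachidonic acid, lies from 10257378 to 10271362 on the plus strand. Its levels were 739, 669.6, 585, 848 and 739 CPM on CD and 681, 743, 870.0, 821 and 806 CPM on LD. The ranges overlapped for most mice. Its log2 fold change was 0.13 (95% interval -0.08 to 0.35), and the edgeR adjusted p was 0.359. The difference between the responses of Fads2 and Fads1 was not tested.

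Scd1 is the main stearoyl-CoA desaturase of liver and makes oleate and palmitoleate. The gene is on chromosome 19 from 44468940 to 44482199 on the minus strand. It had 24711, 25188, 19621, 33951 and 22733 CPM in the CD mice and 9130.1, 10708, 14817, 14454 and 15771 CPM in the LD mice. Although the LD mice spread over a wide range, the highest of them stayed under the lowest CD mouse. Its log2 fold change was -0.96 (standard error 0.171, edgeR adjusted p = 0.00152), which is 1.95-fold more on CD.

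Scd2, the form that predominates outside the adult liver, lies from 44368166 to 44381352 on the plus strand of the same chromosome. Its level was 9.43 to 13.8 CPM on CD and 9.66 to 16.3 CPM on LD, so the diets overlapped, with LD mouse 5 above all CD mice. The log2 fold change of 0.03 (95% interval -0.27 to 0.33) did not pass (edgeR adjusted p = 0.894), and its sign turned without LD mouse 5 (-0.08) or CD mouse 5 (-0.05). The Scd genes are close in sequence, so that read pairs could be assigned to a copy they did not come from, and the values of Scd2, Scd3 and Scd4 beside the abundant Scd1 are uncertain for that reason.

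Levels of different genes were compared only in TPM, which the authors computed and which take account of transcript length as well as depth. The name of 1 of the 5 CD columns gives the diet but a replicate number that no mouse has, and it was taken as a CD mouse. Scd1 stood far above the rest on both diets, with 5104 ± 1268 TPM on LD and 9383 ± 2097 TPM on CD (SD, n = 5 each). On CD it was followed by Elovl5 and Fads2 with means of 823 and 714 TPM, by Elovl2 and Fads1 with 412 and 372 TPM, and by Elovl3 and Elovl6 with 172 and 139 TPM. Within each of these pairs the ranges of the CD mice overlapped, and between successive pairs they did not. On LD the order was Fads2 and Elovl5 with 1170.4 and 1143 TPM, Fads1 with 430.1, Elovl2 with 302, and Elovl6 and Elovl3 with 81.8 and 70.5 TPM. Fads1 and Elovl2, which overlapped on CD, were apart on LD, with 373 TPM in the lowest mouse for Fads1 and 332 TPM in the highest for Elovl2. Elovl1 with 25.0 to 31.9 TPM and Scd2 with 4.07 to 4.41 TPM, as means of the diets, were the lowest on both.

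To see which transcripts moved most like each enzyme from mouse to mouse, Pearson's r of log2 CPM was computed over the 10 mice after the mean of each diet was removed, among 7803 genes with at least 10 CPM on average. These values describe 10 mice that share a scaling of depth, and carry no p-value. Among the members, Fads1 and Fads2 had r = 0.90, Fads1 and Scd1 0.865, and Elovl1 and Scd1 0.814, while Elovl3 ran against Scd2 (-0.753), Elovl1 (-0.62) and Scd1 (-0.595). Snapc2 was among the 3 most alike to both, with 0.945 for Fads1 and 0.921 for Fads2, next to Ppp2cb and Fam124a for Fads1 and Tmem55b and Btf3 for Fads2. Closest to Scd1 were Kmt5a, Tmem185b and Pon2 (0.935 to 0.957), and closest to Elovl6 were Hsp90aa1, Ppp2ca and Pi4k2b (0.89 to 0.967). Ppp2r5c, Maged1 and Ube2e3 led for Elovl1 (0.95 to 0.972), Pim1, Zfyve19 and Fabp5 for Elovl2 (0.913 to 0.919), and Nags, Gchfr and Zpr1 for Elovl3 (0.893 to 0.904). Elovl5 was most like Pgrmc2, Jagn1 and Cs (0.95 to 0.961), and Scd2 most like 2310030G06Rik, Zfp143 and Cnih4 (0.876 to 0.925).

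**Figure D2:**
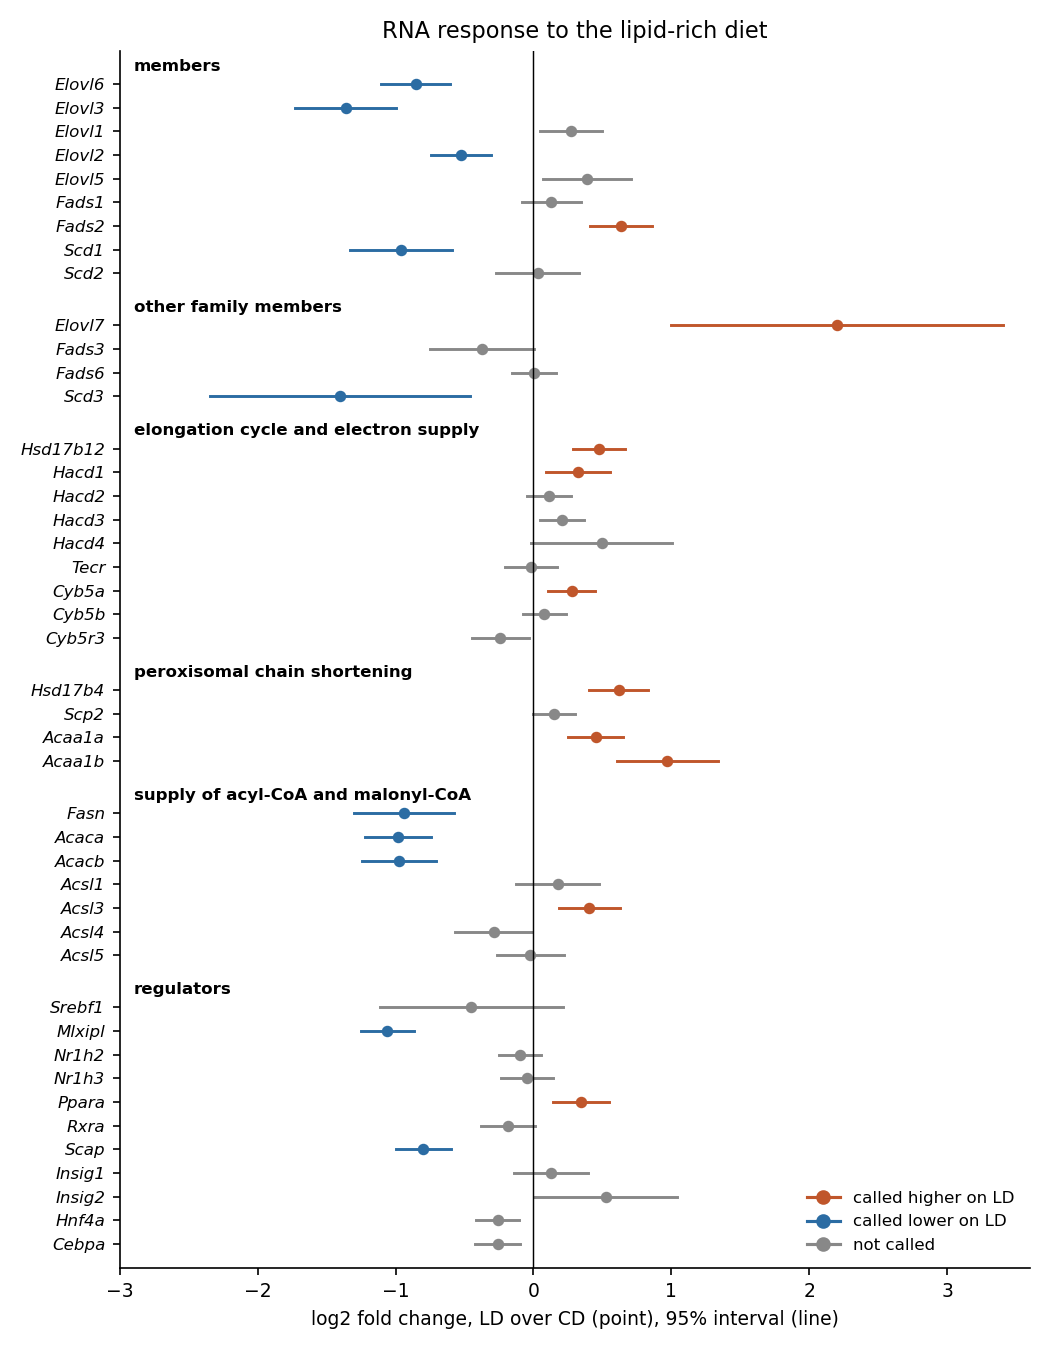
Log2 fold change of LD over CD (points) with its 95% interval (lines) for the 9 enzymes and the 35 tested genes of the lists around them, coloured by call. Fads2 lies to the right of 0, Elovl6, Elovl3, Elovl2 and Scd1 to the left, and 3 of 4 peroxisomal genes are coloured as higher on LD.

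The rest of the Elovl, Fads and Scd families added little RNA. Of 6 further family members, 4 could be tested, of which 1 was called higher (13.8% of all genes) and 1 lower (11.1%), with a median log2 fold change of -0.18. Elovl7, an elongase of saturated and polyunsaturated chains, had 10, 25, 44, 33 and 101 read pairs on LD against 9, 15, 10, 5 and 6 on CD, and its log2 fold change was 2.20 (standard error 0.554, edgeR adjusted p = 0.0113). LD mice 2 to 5 were above all CD mice and LD mouse 1 among them. It was not called in limma on log2(TPM + 1), where its log2 difference was 0.37 (adjusted p = 0.0624). Leaving out a mouse gave 1.62 to 2.46, the lowest without LD mouse 5, which held the most read pairs. Scd3 had 23, 18, 25, 43 and 41 read pairs on LD and 58, 62, 39, 163 and 57 on CD, with a log2 fold change of -1.40 (edgeR adjusted p = 0.0302). CD mouse 4 had the most of both Scd3 and Scd1, and without it the Scd3 value was -0.85 (adjusted p = 0.0574). The call of Scd3 also ended without LD mouse 1, 2 or 3, with adjusted p of 0.0643, 0.0698 and 0.0683. Fads6, the most abundant of these by TPM, was level at 0.01 (edgeR adjusted p = 0.968), while Elovl4 (9 read pairs on LD and 9 on CD) and Scd4 (36 and 64) were removed by the filter.

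In the elongation cycle and its electron supply, 3 of 9 tested genes were called higher on LD (13.8% of all genes) and 0 lower (11.1%), with a median log2 fold change of 0.21. Hsd17b12, the ketoacyl reductase that follows the Elovl step, rose from 183 ± 6.94 to 255 ± 33.8 CPM (SD, n = 5 each), or by 0.47 on the log2 scale (edgeR adjusted p = 0.00162). Its mice did not overlap, with 177 to 195 CPM on CD and 204 to 282 CPM on LD. Hacd1, a dehydratase of the cycle, and Cyb5a, cytochrome b5 and the most abundant of the list, rose by 0.33 and 0.28 on the log2 scale (edgeR adjusted p = 0.0364 and 0.019). Both calls depended on the mice included: Hacd1 kept its call without LD mouse 1 or 4 and lost it without any other, with log2 fold changes of 0.26 to 0.38. Cyb5a lost its call without LD mouse 1 or 4 or CD mouse 2 or 4, with 0.24 to 0.32 over all 10 fits.

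Peroxisomal beta-oxidation shortens very long chains and carries out the last step towards docosahexaenoic acid. On LD, 3 of the 4 genes listed for it were called higher (13.8% of all genes) and 0 lower (11.1%), with a median log2 fold change of 0.53. Acaa1b, a thiolase, had 1555, 1449, 1979.7, 2284 and 1711 CPM on LD against 765, 668, 1120.2, 864 and 1161 on CD, a log2 fold change of 0.97 (edgeR adjusted p = 0.0014). Hsd17b4, the bifunctional enzyme of the middle steps, rose by 0.62 on the log2 scale (edgeR adjusted p = 0.000662), and Acaa1a, another thiolase, by 0.45 (adjusted p = 0.00281). Against a fold of 1.2 in edgeR's glmTreat, Acaa1a was not called (adjusted p = 0.0682). Scp2, the most abundant of the list by TPM, had a log2 fold change of 0.15 that did not pass (edgeR adjusted p = 0.132).

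Among 7 genes that supply malonyl-CoA, palmitate or activated acids, 3 were called lower on LD (11.1% of all genes) and 1 higher (13.8%), and the median log2 value was -0.29. Acaca and Acacb, the acetyl-CoA carboxylases, and Fasn, fatty acid synthase, fell by 0.98, 0.98 and 0.94 on the log2 scale (edgeR adjusted p = 6.4e-05, 0.000173 and 0.00153), close to Scd1 and Elovl6 in size. Acsl3, an acyl-CoA synthetase, rose by 0.41 (edgeR adjusted p = 0.00977, or 0.169 in glmTreat against a fold of 1.2), and Acsl1, the most abundant of the list by TPM, was not called (0.17, edgeR adjusted p = 0.378).

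Of 11 regulators, 1 was called higher and 2 lower on LD, which is near the background of 13.8% and 11.1%, and the median log2 value was -0.18. Mlxipl, which encodes the carbohydrate-responsive factor ChREBP, had 43.8, 32.1, 42.1, 40.4 and 41.5 CPM on LD and 73.8, 79.6, 87.3, 94.3 and 81.9 CPM on CD, a log2 fold change of -1.06 (edgeR adjusted p = 9e-06). Scap, the escort protein of SREBP, fell by 0.80 on the log2 scale (edgeR adjusted p = 7.4e-05), and Ppara, a fatty acid receptor, rose by 0.34 (edgeR adjusted p = 0.016, or 0.329 in glmTreat against a fold of 1.2). Srebf1, which encodes the lipogenic SREBP, ranged from 301 to 423 CPM on LD and from 279 to 924 CPM on CD and was not called (-0.45, edgeR adjusted p = 0.292). Insig1, which holds SREBP back and was the most abundant of the list by TPM, was not called either (0.13, edgeR adjusted p = 0.483). Hnf4a and Cebpa, whose proteins were mapped by ChIP-seq, had values of -0.26 each with edgeR adjusted p of 0.0176 and 0.0202, and stayed under the fold threshold.

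H3K27ac, a histone mark of active promoters and enhancers, was measured as the share of bases inside the deposited SICER peaks over each gene and 20 kb on either side. Elovl6, Elovl2 and Scd1, 3 of the genes that fell, had more covered bases in every CD liver than in any LD liver, against 5.92% of genes. Elovl1 and Fads1 had more in every LD liver, against 22.0% of genes, and the other 4 overlapped. These orders are a description: an exact two-sided permutation test of 3 against 3 cannot give less than 0.1, and no other test was run. All peaks together covered 149.8 to 160.4 Mb in the LD livers and 139.7 to 145.4 Mb in the CD livers, and relative to these totals Fads1 overlapped between the diets. Elovl1 was then still higher in every LD liver, against 13.1% of genes, and Elovl6, Elovl2 and Scd1 in every CD liver, against 16.6%.

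The greatest contrast in H3K27ac was at Elovl6. The mark covered 63.4%, 62.7% and 73.8% of its window in the CD livers and 51.9%, 41.9% and 40.7% in the LD livers. All CD values lay above all LD values, with a ratio of LD over CD of 0.673. Much of the difference was inside the gene: the locus from 129307600 to 129329599 held 15200, 11600 and 20600 covered bases on CD and 7400, 3200 and 1400 on LD. At its far end the locus from 129338600 to 129340799, with 600, 1600 and 1800 covered bases on CD, had no peak in any LD liver, and it was the only H3K27ac locus near the 9 genes found in all livers of 1 diet and in none of the other. Of 39 H3K27ac loci near the members, 29 were present in all 6 livers, 1 on CD only, 0 on LD only and 9 in other combinations. Over all loci, 59.5% were present in all livers, 0.757% on CD only and 3.13% on LD only.

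The window of Elovl2 was covered to 71.7%, 69.2% and 74.8% on CD and 61.0%, 59.9% and 58.2% on LD, again without overlap. A locus at the end of that gene, from 41274600 to 41285999, had 9600, 6800 and 9600 covered bases on CD and 3200, 2400 and 3600 on LD. The Scd1 window had 72.5%, 71.7% and 74.4% on CD and 64.2%, 63.5% and 64.2% on LD. Elovl1 showed the opposite order, with 33.4%, 30.8% and 30.8% on LD and 23.2%, 21.8% and 21.8% on CD. The locus that spans its start, from 118098200 to 118106199, measured 7000, 7400 and 6600 bases on LD and 6000 in each CD liver. Fads1 differed less, with 59.6%, 57.8% and 56.7% on LD and 54.1%, 55.6% and 51.5% on CD, and relative to all covered bases its diets overlapped.

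Fads2, the gene that rose, had the most complete cover of the 9, with 88.1%, 87.1% and 82.7% on LD and 84.8%, 76.0% and 82.5% on CD. These values overlapped, although the locus from 10185200 to 10193199, upstream of the gene, held 6200, 7000 and 6800 bases on LD against 4600, 2000 and 4200 on CD. Elovl3, which fell the most in RNA, overlapped as well, with 24.7%, 21.0% and 18.7% on LD and 24.7%, 21.9% and 26.5% on CD. Elovl5 and Scd2 overlapped between the diets, and the Scd2 window was the least covered, with 8.27% to 15.8%.

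**Figure D3:**
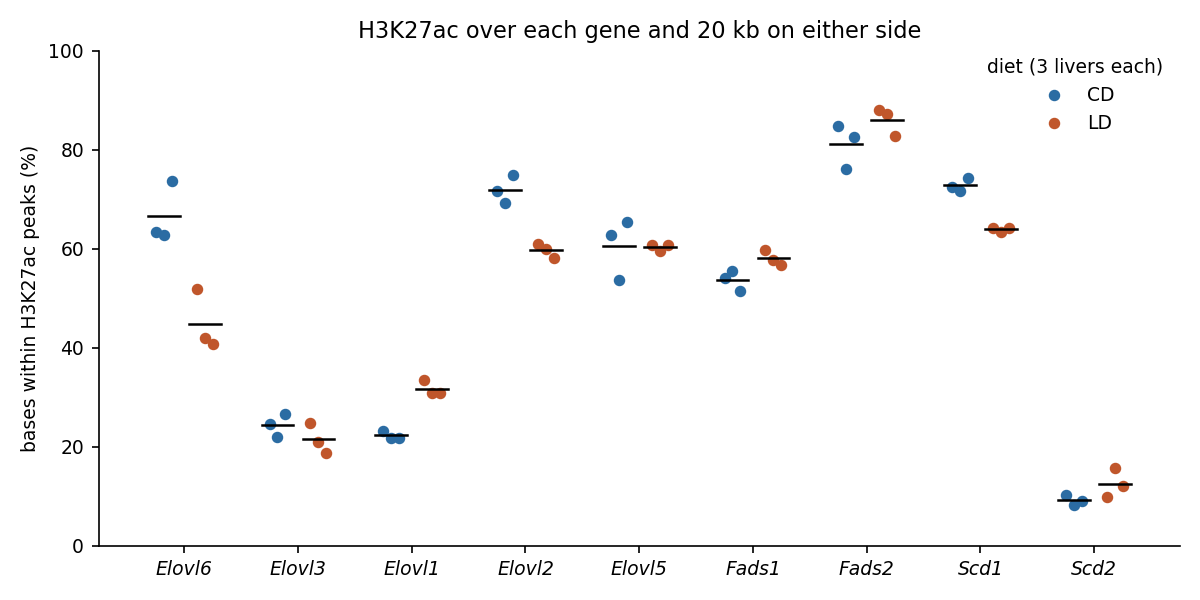
Share of bases within H3K27ac peaks over each gene and 20 kb on either side, in percent, in each liver (3 per diet, CD in blue, LD in orange), with the mean as a black line. Elovl6, Elovl2 and Scd1 are higher in every CD liver and Elovl1 and Fads1 in every LD liver, of which Fads1 overlaps relative to all covered bases.

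Hnf4α and C/EBPα are factors that keep hepatocyte genes active, and both had peaks at the start sites of several of these enzymes. Sequences are shown for the promoters of 3 genes that changed and for 2 peaks that are described below. They were read from NCBIM37, the assembly that mm9 names. Promoters are the 250 bases before the annotated start on the strand of the gene, and peaks are the 200 bases around the centre on the plus strand. Capitals mark matches to 5 strings searched on both strands: TCACNCCAC for a sterol regulatory element, CACGTG for an E-box, CCAAT for a CCAAT box, TTGCNNAA for a C/EBP site and CAAAGNNCA for an Hnf4 site. No capitals overlap another match in the windows shown.
Elovl6 promoter, chr3:129235054-129235303, plus strand: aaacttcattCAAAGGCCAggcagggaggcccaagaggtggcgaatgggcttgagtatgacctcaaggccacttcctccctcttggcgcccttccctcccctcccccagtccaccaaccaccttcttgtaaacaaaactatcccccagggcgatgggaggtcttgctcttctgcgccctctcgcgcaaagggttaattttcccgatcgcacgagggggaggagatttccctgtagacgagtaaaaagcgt
Scd1 promoter, chr19:44482200-44482449, minus strand: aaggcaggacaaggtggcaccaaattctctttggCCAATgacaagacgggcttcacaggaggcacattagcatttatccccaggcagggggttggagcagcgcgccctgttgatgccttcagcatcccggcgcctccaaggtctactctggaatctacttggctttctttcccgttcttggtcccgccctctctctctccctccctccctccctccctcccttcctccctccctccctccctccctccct
Fads2 promoter, chr19:10175994-10176243, minus strand: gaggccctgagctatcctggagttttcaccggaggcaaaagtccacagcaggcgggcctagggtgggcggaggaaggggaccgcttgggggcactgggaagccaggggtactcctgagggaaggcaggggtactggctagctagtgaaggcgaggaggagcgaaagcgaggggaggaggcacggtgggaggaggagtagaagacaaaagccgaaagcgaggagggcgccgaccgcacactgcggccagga
Elovl6 intron, tallest Hnf4α peak, chr3:129267839-129268038, plus strand: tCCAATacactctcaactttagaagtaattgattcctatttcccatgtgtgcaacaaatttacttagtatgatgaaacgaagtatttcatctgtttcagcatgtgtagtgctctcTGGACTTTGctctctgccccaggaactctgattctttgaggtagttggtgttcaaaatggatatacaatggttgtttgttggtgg
Beyond the end of Scd1, C/EBPα peak found on LD, chr19:44464146-44464345, plus strand: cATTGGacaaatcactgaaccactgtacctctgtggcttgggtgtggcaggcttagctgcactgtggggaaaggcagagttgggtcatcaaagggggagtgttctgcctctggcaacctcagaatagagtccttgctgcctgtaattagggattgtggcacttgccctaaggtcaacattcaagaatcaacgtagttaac

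The Elovl6 promoter holds an Hnf4 string, CAAAGGCCA, from 240 bases before the start, and 4.91% of 13477 promoters of the same length hold such a string. The tallest Hnf4α peak near Elovl6 holds the same kind of string on the other strand, TGGACTTTG, as 23.0% of all Hnf4α peak windows do. Scd1 has a CCAAT box, found in 36.1% of promoters, and the Fads2 window holds none of the strings. Over the 9 promoters, 5 had a CCAAT box, 1 (that of Elovl5) had an E-box against 8.2% of all promoters, and none had the sterol regulatory string (0.987% of promoters) or the C/EBP string (7.87%). A match describes the letters only.

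Hnf4α had 67 peak loci near the members, of which 65 lay in an H3K27ac locus, against 78.8% of all Hnf4α loci, and 27 overlapped a C/EBPα locus, against 39.3%. The measure was the summed peak height, in tags scaled by the authors to a common library size, over each gene and 20 kb on either side. No member had a greater sum in both livers of a diet than in both of the other, against 12.6% of genes with more in both LD livers and 4.91% with more in both CD livers. The CD livers differed from each other: over loci common to all 4 lists the median height was 21.5 in CD liver 1, 42.8 in CD liver 2, and 35.8 and 33.5 in the LD livers. Without CD liver 2, all 9 members were higher on LD, and without CD liver 1, 7 were higher on CD. No share over all genes is given for these left-out counts, so they are not a result about the members. With 2 livers against 2, no exact permutation test could reach 0.05.

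Heights divided by each liver's median over the common loci placed both CD livers above both LD livers for Fads2 (7.81 and 8.77 against 5.02 and 5.65) and Elovl6 (20.4 and 21.0 against 18.1 and 18.2). For Scd1 they placed both LD livers above (11.3 and 11.7 against 8.90 and 10.9). By this measure 22.6% of all genes were greater in both CD livers and 20.9% in both LD livers, so that 2 and 1 of 9 members are near the background. The deposited sums were greatest at Elovl6, whose window is also the longest (146108 bases, against 53260 for Scd1), with 438 and 898 on CD and 648 and 610.1 on LD. Its tallest locus, from 129267821 to 129268055 in an intron 32.6 kb from the start, had heights of 133.0 and 244.8 on CD and 232.8 and 213.0 on LD. At Fads2 the tallest locus covered the promoter, from 10176074 to 10176322, with 93.8 and 135.0 on CD and 102.0 and 83.5 on LD. The tallest for Scd1, from 44490810 to 44491033, lay 8.72 kb upstream of the start and had 74.5 and 122.5 on CD and 99.2 and 81.0 on LD. For Elovl2 it lay 15.6 kb upstream (50.5 and 120.5 on CD, 91.2 and 71.8 on LD). Those of Elovl1, Elovl5 and Fads1 were intronic, with mean heights of 59.9, 65.9 and 64.0, that of Elovl3 lay 7.03 kb upstream at 24.0, and that of Scd2 reached 13.

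Among the 67 Hnf4α loci, 34 were present in all 4 livers, 6 in both LD livers only and 3 in both CD livers only, against 50.9%, 7.49% and 3.96% of all Hnf4α loci. A locus without a listed peak has a height of 0 here, and the lowest listed height was 3.0 to 3.5. Beyond the end of Scd1, the loci from 44460705 to 44460937 (42.8 and 39.0) and from 44464187 to 44464405 (38.0 and 47.8) were the tallest of the 6. At the Elovl3 start an LD-only locus from 46206198 to 46206416 had heights of 15.5 and 13. On CD only were 2 loci in Elovl6 introns with heights up to 17.5 and a locus in a Fads3 exon, inside the Fads2 window, with 21.8 and 44.5.

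C/EBPα summed heights were greater in both LD livers for 1 member, Scd1, and greater in both CD livers for 3, Elovl5, Elovl6 and Fads1. The background was 9.52% and 36.6% of genes, so that 1 and 3 of 9 members are near it. The median height over common loci was 37.5 in CD liver 1 against 24.0 to 25.5 in the other 3. Scd1 had 178.0 and 233.5 on LD and 159.5 and 75.5 on CD, so that the size of the difference depends on which CD liver is taken. After division by the medians it still had 7.42 and 9.16 on LD and 4.25 and 3.02 on CD. The order of the diets was thus the reverse of that of Scd1 RNA.

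For Elovl5 the C/EBPα sums were 205.5 and 195.5 on LD and 334.0 and 248.5 on CD, and for Elovl6 they were 202.5 and 183.5 against 298.0 and 250.5. The divided heights kept this order for Elovl5 and ended it for Elovl6 (8.44 and 7.20 on LD, 7.95 and 10.02 on CD) and Fads1 (5.19 and 4.69 on LD, 4.87 and 5.54 on CD). With divided heights, 3 members were greater in both LD livers, against 22.3% of genes, and 1 in both CD livers, against 26.5%. Without CD liver 1 the deposited heights gave 5 on LD, and without CD liver 2 they gave 8 on CD, again without a share over all genes beside them.

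At the level of loci, the tallest C/EBPα peak of the 9 genes was in an Elovl5 intron, from 77791158 to 77791472, with 144.0 and 84.0 on CD and 69.5 and 69.0 on LD. The tallest for Elovl6 overlapped the promoter sequence above, from 129234844 to 129235158, with 80.5 and 68.5 on CD and 42.0 and 44.5 on LD. An Hnf4α locus from 129234954 to 129235225 overlapped it, with 41.5 and 97.2 on CD and 80.0 and 72.8 on LD. Near Fads1 the tallest, 16.8 kb upstream, had 74.0 and 59.0 on CD and 49.0 and 35.5 on LD. Mean heights of the tallest loci were 50.5 for Elovl1, 27.6 for Elovl2, 11.4 for Elovl3, 31.5 for Fads2 and 24.9 for Scd2. For Scd1 it lay from 44454644 to 44455035, beyond the gene's end, with 40.0 and 49.5 on LD and 36.0 and 20.5 on CD.

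Of 55 C/EBPα loci, 26 were present in all 4 livers, 6 on LD only and 2 on CD only, against 41.8%, 15.3% and 5.22% of all C/EBPα loci. In an H3K27ac locus lay 52 of them, against 75.4%, and 27 overlapped an Hnf4α locus, against 54.6%. The tallest LD-only locus, from 44464108 to 44464382 beyond Scd1, had heights of 25.0 and 35.0 and overlapped the LD-only Hnf4α locus that starts at 44464187. The last sequence printed above is the centre of this C/EBPα locus. It lies 17954 bases from the Scd1 start, and the Scd1 promoter contacted the fragment next to it in PCHi-C, as given below.

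**Figure D4:**
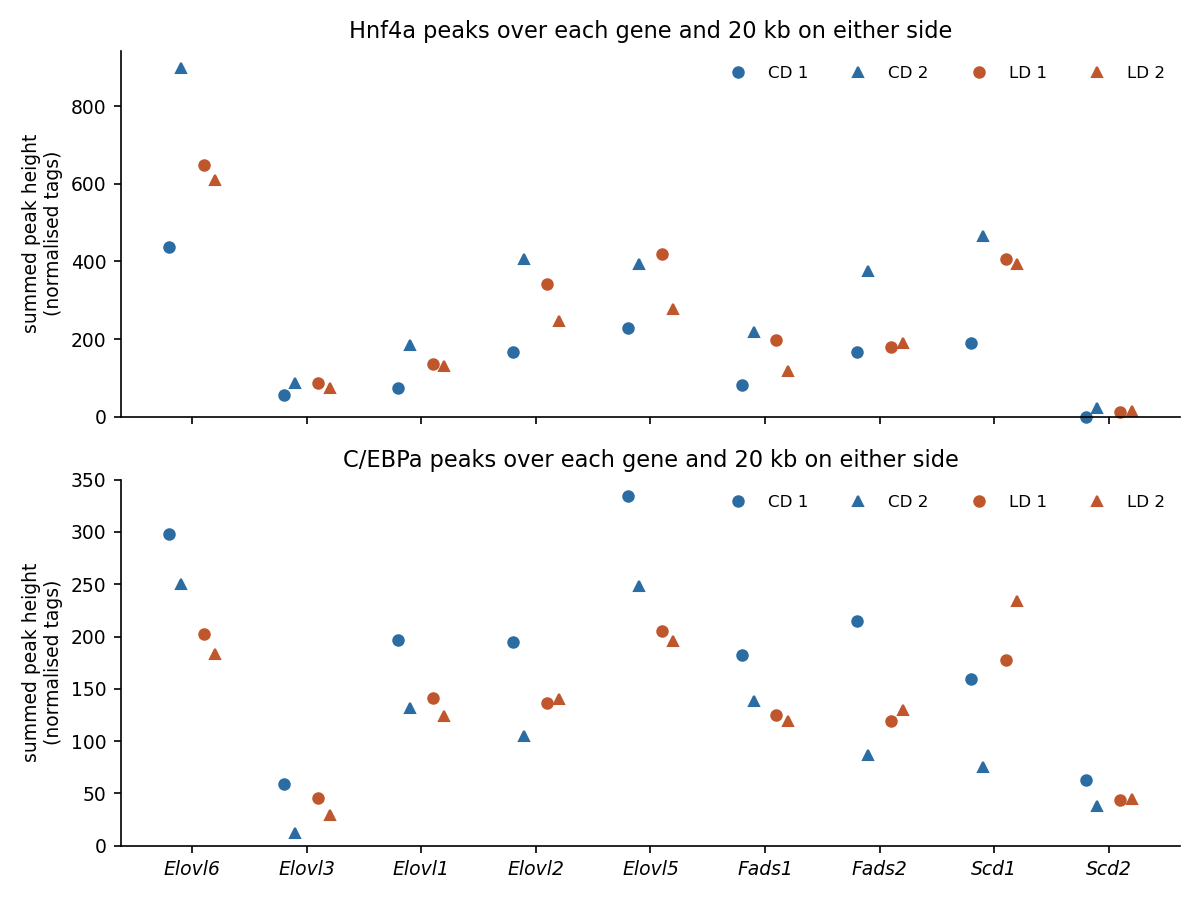
Summed peak height, in normalised tags, of Hnf4α (upper panel) and C/EBPα (lower panel) over each gene and 20 kb on either side, in each liver (2 per diet, CD in blue, LD in orange, circles for liver 1 and triangles for liver 2). Hnf4α sums of CD liver 1 are below those of CD liver 2 at every gene, and for C/EBPα both LD livers exceed both CD livers at Scd1.

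PCHi-C lists fragments that contact a captured promoter, each with a CHiCAGO score of at least 5. The lists used here pool the 2 libraries of a diet, so their scores carry no replicate error and were not tested here. The 9 promoters had 148 interactions on LD and 198 on CD, of which 130 were on both lists. Thus 87.8% of the LD interactions and 65.7% of the CD interactions were shared, against 69.6% and 70.3% over all promoters. The remainder was 18 interactions listed on LD only and 68 listed on CD only, against 23.5% and 22.7% of all interactions. Elovl5 alone gave 61 of the 130, 11 of the 18 and 36 of the 68. The interaction between Fads1 and Fads2 is counted for both genes. No promoter had more interactions on LD, 7 had more on CD, and Elovl1 and Scd2 had the same number, while of 17705 promoters 44.2% had more on LD and 38.1% had more on CD.

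Elovl5 had the most interactions, 72 on LD and 97 on CD, which placed it above 99.1% and 99.6% of promoters. Elovl6 followed with 33 on LD and 39 on CD, then Fads1 with 15 and 23, Fads2 with 11 and 16, Elovl3 with 6 and 10, and Elovl2 with 8 and 9. Scd1 had 1 on LD and 2 on CD, and Elovl1 and Scd2 had 1 on each. Scd1, the most abundant of these transcripts, thus had almost no listed contact. At stricter scores the totals kept this order, with 77 on LD and 108 on CD at a score of at least 7 and 39 and 52 at a score of at least 10.

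Among the 129 distinct shared interactions, 88 had the higher score on CD, against 52.4% of all shared interactions. In 47 it was over 1.2 times the LD score, against 23.8%. In 10 the LD score was over 1.2 times the CD score, against 20% (21090 of 105310). None of the interactions on 1 diet reached a score of 10, the highest being 8.91, while 0.488% of all interactions were on 1 diet with at least that score. Of the 216 other ends, 146 (67.6%) overlapped an H3K27ac locus, against 35.7% of all interactions, 70 (32.4%) an Hnf4α locus, against 15%, and 59 (27.3%) a C/EBPα locus, against 12.2%. Elovl5 alone gave 61 of the shared interactions, so that these counts describe its promoter more than any other. An H3K27ac locus lay on 46 of its 72 other ends on LD and 66 of 97 on CD. On CD the number was 0 of 10 for Elovl3 and 23 of 23 for Fads1.

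The highest score of Elovl5 was with a fragment 109 kb upstream, from 77654720 to 77658476, at 28.09 on LD and 34.44 on CD. That of Elovl6 was with a fragment 232 kb upstream, from 129000941 to 129007481, at 21.03 on LD and 24.24 on CD, and both fragments overlapped H3K27ac loci present in all 6 livers. The strongest contact of Fads1 and of Fads2 was with each other, over 81.4 kb, with 25.90 on LD and 33.84 on CD. Fads1 also contacted the promoter of Fads3 at 14.57 and 14.17. Elovl1 contacted the promoter of Tie1, 59.6 kb downstream, at 24.10 on LD and 33.10 on CD.

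Elovl2 reached 11.61 on LD and 13.62 on CD, with neighbouring fragments about 376 kb and 370 kb downstream. The 12 fragments that Elovl3 contacted lay 121 to 160 kb downstream, scored up to 7.36 on LD and 9.46 on CD, and none overlapped an H3K27ac locus. Scd1 contacted a fragment 18.2 kb downstream, from 44463451 to 44464072, at 5.16 on LD and 5.54 on CD, with an H3K27ac, an Hnf4α and a C/EBPα locus on it. On CD it also reached the promoter of Chuk at 6.08. Scd2 contacted a fragment 134 kb upstream at 6.66 on LD and 5 on CD.

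**Figure D5:**
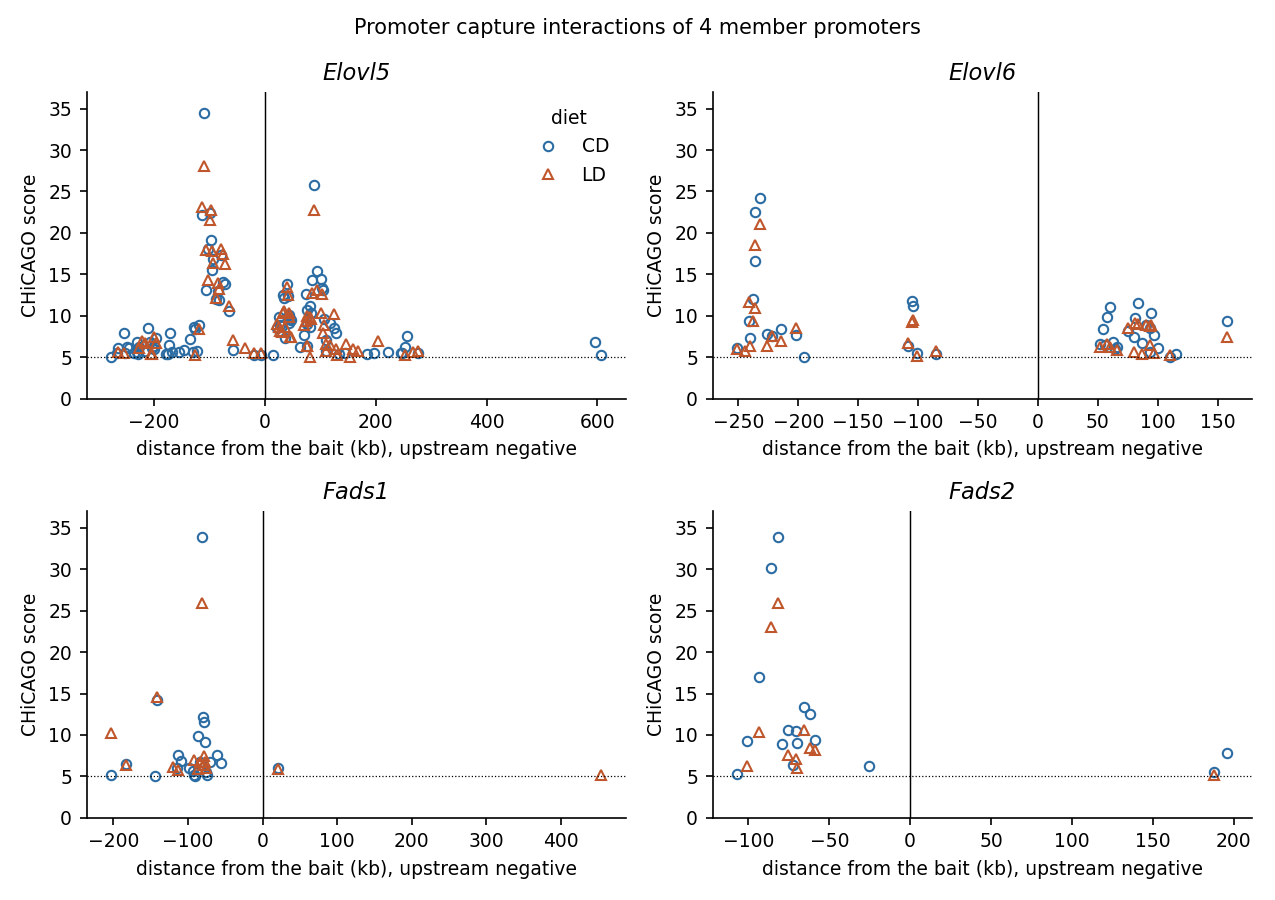
CHiCAGO score of each listed interaction against its distance from the captured promoter in kb (upstream negative) for Elovl5, Elovl6, Fads1 and Fads2, with CD as blue circles, LD as orange triangles and the dotted line at the listing threshold of 5. The highest scores of Elovl5, Elovl6 and the Fads1 to Fads2 contact are listed on both diets and are higher on CD.

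Side by side, the genes called lower on LD differed in their chromatin values. Elovl6, Elovl2 and Scd1 combined less RNA with a smaller H3K27ac share in every LD liver, and Elovl3 combined less RNA with H3K27ac shares that overlapped. At Scd1, C/EBPα was higher in both LD livers, an order held by 9.52% of all genes, or 22.3% with divided heights. Fads2 combined more RNA on LD with H3K27ac shares that overlapped. These overlaps rest on single livers: by covered bases, the Fads2 share was higher in every LD liver without LD liver 3 or CD liver 1. Per Mb of all covered bases, Fads2 had 437, 420 and 427 bases on LD and 463, 404 and 457 on CD. These values also overlapped, and without CD liver 2 they were higher in every CD liver. Without LD liver 1 the Elovl3 share was higher in every CD liver. No test was made across the assays.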

How the data were processed

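The 9 members and the gene lists were chosen with earlier results of these data known. The authors aligned RNA-seq read pairs with STAR 2.5 and deposited featureCounts 1.5.0-p1 counts on RefSeq genes and TPM values. Their own fold changes and p-values were not used. They deposited SICER peaks of H3K27ac (mm9), HOMER peaks whose normalised tag score is the height used here, and the CHiCAGO score of pooled PCHi-C libraries. The labels give the Hnf4α antibody a catalogue number that differs between samples, and the samples were treated as alike. TAD lists and input libraries were not used here. Counts were tested with edgeR 4.0.16 (TMM, filterByExpr, robust quasi-likelihood) in R 4.3.3, with adjustment over 13494 rows. DESeq2 1.42.0, limma 3.58.1, other filters, windows, scores and left-out samples were alternatives. Overlapping peaks were merged, and loci in at least 2 samples were kept. A further gene was left out of these lists and is not reported here. All members are named, in each pathway list the called genes and the most abundant by TPM, and in the marker lists the called genes. Srebf1, Hnf4a and Cebpa were named after their values were seen, and the genes of the lists that were not called otherwise stand in counts only. Replicates are separate samples by the labels, and p-values measure the spread between them. The deposited peak and interaction lists hold no read totals, and sequencing depths stated elsewhere by the study were not used here. Scripts were tested on simulated data.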

Additional observations from a re-analysis of the deposited data

How the results depend on the processing

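The 5 member calls held under every RNA alternative. Members called higher on LD numbered 1 in the main fit, 2 in DESeq2, 3 in limma on log2(TPM + 1) and 3 on log2(TPM + 0.1), and 1 to 3 when a mouse was left out. The log2 fold change of Scd2 ranged from -0.079 to 0.11 when a mouse was left out, and was -0.079 and -0.05 without LD mouse 5 and CD mouse 5. Over all genes, 1859 were called higher and 1498 lower in edgeR, 2227 and 740 in limma on log2(TPM + 1). The median log2 fold change of all genes was -0.0019 in the former and 0.0563 in the latter. Genes called in the 5 pathway lists fell from 15 to 9 in edgeR's glmTreat against a fold of 1.2, which lost Scd3, Hacd1, Cyb5a, Acaa1a, Acsl3 and Ppara. Replicate numbers did not pair the mice (1 of 5 correlations between same-numbered mice was over 0.1). With a replicate block, 1 member was called higher and 4 lower, as without it, and Hacd1 was lost (adjusted p = 0.0593). H3K27ac members higher in every LD liver numbered 2, 1 with 5 kb windows, 1 relative to all covered bases, and 2 to 4 when a liver was left out, and those higher in every CD liver 3, and 3 to 4 when a liver was left out. Hnf4α members went from 0 on LD to 1 with 5 kb windows, 1 with divided heights and 0 to 9 when a liver was left out, and from 0 on CD to 2 with divided heights and 0 to 7 when a liver was left out. C/EBPα members went from 1 on LD to 3 with divided heights and 1 to 5 when a liver was left out, and from 3 on CD to 5 with 5 kb windows, 1 with divided heights and 3 to 8 when a liver was left out. PCHi-C interactions on LD, CD and both diets numbered 77, 108 and 72 at a score of at least 7, and 39, 52 and 35 at 10, since fewer are listed there. Counts with a liver left out stand without the share over all genes, and are not results about the members. Causes of the other changes were not tested. Peak and interaction lists hold no reads outside the listed regions, so that an absent peak or contact is not a measured zero.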
